A study of Arabidopsis thaliana with 7 samples.

Results

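WRKY53 (locus AT4G23810) was examined on all 7 arrays of a study of WRKY knockouts and leaf senescence in Arabidopsis thaliana. It is 1 of 13286 genes with a named probe set, and it was taken by its annotation, which gave it 1 probe set. Labelled total RNA came from entire rosettes of 14-day-old plants. All plants were grown at 70% humidity, 22 °C by day and 19 °C by night, with 10 hours of light and 14 hours of darkness, and all stood in soil treated with the insecticide imidacloprid. The groups inoculated with Pst-DC3000, a strain of the leaf bacterium Pseudomonas syringae, were T-DNA knockouts of WRKY18, WRKY40, WRKY60 and WRKY53, a WRKY18 and WRKY40 double knockout, and wild-type Col-0. The remaining group was Col-0 given MgCl2 as a mock treatment. No knockout was sampled after mock treatment, so a genotype's own response to the bacterium cannot be separated from its basal level. The time from treatment to harvest, the position of each insertion and the number of plants per array are not given in the sources used here. Each group had 1 array, so no value has a replicate error and no test was possible. In whole rosettes, fewer cells of a type and less RNA per cell cannot be told apart.

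WRKY proteins are plant transcription factors named after a conserved amino acid stretch in their DNA-binding domain, which recognises the W-box, a short promoter element common in defence genes. WRKY53 belongs to group III of the family and promotes the onset of leaf senescence. Its gene responds to salicylic acid and hydrogen peroxide and is switched on early in pattern-triggered immunity, the response to conserved microbial molecules. WRKY18, WRKY40 and WRKY60 form group II-a, can bind to each other, and act partly redundantly on defence genes. Pst-DC3000 makes coronatine, a mimic of jasmonate, the hormone that opposes many salicylic acid responses.

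The values are MAS5 signals on a linear scale, in which each array has been scaled to the same trimmed mean. Signals under 22.1, a floor given by the 40th percentile of each array averaged over the 7 arrays, were raised to it before ratios were taken. A ratio against such a signal is a bound. The 7259 genes whose mean signal reached the floor are called measured. The rosette label was checked against leaf markers, of which 3 of 10 had a named probe set. RCA (Rubisco activase) had signals of 2657 to 5865 over the 7 arrays. SBPASE and PRK, both Calvin cycle enzymes, had 962 to 1573 and 1053 to 1756. Of the 8 markers of root hairs, flowers and seeds, the root hair expansin gene EXPA7 alone had a named probe set, and its signals of 1.12 to 14.2 were below the floor on all 7 arrays. The wrky60 array stood apart from the rest. Its 40th percentile of signal was 31.3, against 20.1 to 21.6 on the other 6 arrays, and its median signal was 0.33 higher on the log2 scale than that of the Col-0 Pst array.

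The WRKY53 signal was 79.3 in the wrky18 knockout, 94.6 in wrky40 and 95.5 in the double mutant. The wrky60 array had 141 and the wrky53 array 3.07. Col-0 had 107 after Pst and 358 after mock treatment. The mock array was thus higher than every Pst array, and the wrky53 array was far below all others and under the floor. On the mock array 91.6% of non-control probe sets had a lower signal than WRKY53, and 771 genes a higher one. On the 5 Pst arrays other than wrky53 it lay above 67.3% to 79.0% of probe sets, and on the wrky53 array above 17.1%.

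**Figure D1:**
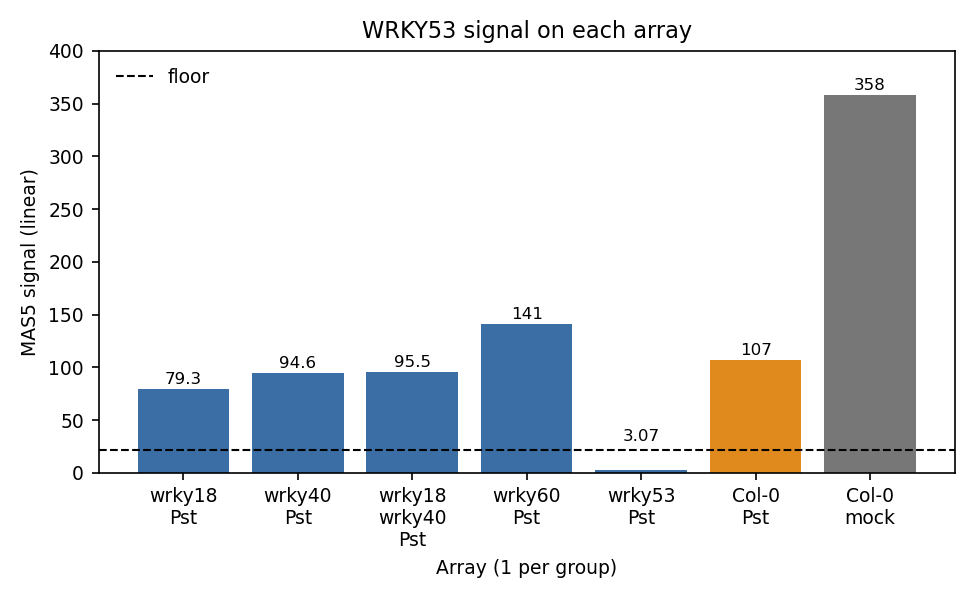
Deposited MAS5 signal of WRKY53 (linear scale) on each of the 7 arrays, 1 per group, with no error bars because no group has a replicate. Blue bars are knockouts after Pst, the orange bar Col-0 after Pst and the grey bar Col-0 after mock treatment. The dashed line is the floor of 22.1, and the wrky53 array at 3.07 is the single bar under it.

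The low signal on the wrky53 array is the check of that label. With the floor in place, the wrky53 array had a WRKY53 signal at least 4.85-fold lower than the Col-0 Pst array (log2 ratio -2.28 or lower), and at least 16.2-fold lower than the mock array. The share of genes at least 2-fold lower was 0.504% against the Col-0 Pst array and 2.12% against the mock array. The value of the bound follows the floor: it was -3.69 with the floor at the 25th percentile and -0.82 at the 60th. AT1G72060 was the one gene of 13286 with a lower ratio in this comparison, at 5.51-fold lower with signals of 107 on the wrky53 array and 591 on the Col-0 Pst array. It was singled out for its place next to WRKY53, after its values were seen. Because WRKY53 was under the floor, the order of these genes is not settled.

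The genes beside WRKY53 on the chromosome did not show the low signal seen for WRKY53 on the wrky53 array. 3xHMG-box2 (AT4G23800), which encodes a high mobility group protein, has an annotated span that overlaps that of WRKY53 in the gene table of assembly TAIR10.1. Its signal was 81.8 on the wrky53 array, 43.4 to 67.7 on the other mutant arrays, 59.8 on the Col-0 Pst array and 63.9 on the mock array. The wrky53 array thus had the highest of its 7 signals. AT4G23820, on the other side, had 310.4 on the wrky53 array, 177 to 297 on the other mutant arrays, 298 on the Col-0 Pst array and 282 on the mock array. Against the Col-0 Pst array, the log2 ratios on the wrky53 array were 0.45 for 3xHMG-box2 and 0.06 for AT4G23820.

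In the wild type, WRKY53 was compared between the Col-0 Pst array and the Col-0 mock array. With 1 array each, a response to the bacterium cannot be told apart from a difference between single arrays or sets of plants. The WRKY53 signal of 107 after Pst, against 358 after mock treatment, was 3.35-fold lower (log2 ratio -1.74), or 29.9% of the mock signal. In this comparison 1.05% of genes were at least 2-fold lower, and 6 of 13286 genes had a lower ratio than WRKY53. The median over measured genes was a log2 ratio of 0.01. Both signals lay well over the floor, and under the alternative floors and scalings the log2 ratio stayed between -1.76 and -1.56.

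The mutant arrays, set against the same mock array, also had low WRKY53 signals. The signal was 22.1% of the mock signal on the wrky18 array, 26.4% on the wrky40 array, 26.7% on the double mutant array and 39.3% on the wrky60 array. These are 4.52-fold, 3.79-fold, 3.75-fold and 2.54-fold lower. At least 2-fold lower than on the mock array were 1.42%, 1.22%, 0.775% and 3.54% of genes on these 4 arrays. All these ratios share the mock array, so its error enters each of them, and the arrays are different genotypes and not replicates of the infection.

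The gap between the mock array and the nearest of the 5 Pst arrays other than wrky53 was 2.54-fold for WRKY53. At least 2-fold below the mock array on all 5 arrays were 24 of 13286 genes (0.181%), WRKY53 among them. A larger gap was seen for 5 genes, which are named here after their values were seen. They were AT1G49000 (4.76-fold), AT1G65490 (3.36-fold), AT5G25440 (3.08-fold), AT3G56880 (2.81-fold) and AT1G51850 (2.56-fold). The nearest array for WRKY53 was wrky60, and without it the gap was 3.35-fold, set by the Col-0 Pst array.

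The WRKY53 level after Pst was then compared between the group II-a knockouts and the wild type, to see whether the arrays labelled as lacking these factors had another WRKY53 level. Unlike the wrky53 label, these labels were not checked, since the 3 genes have no named probe set in the annotation used here. None of the 4 arrays lay 2-fold from the Col-0 Pst array. On the wrky18 array the signal of 79.3, against 107 on the Col-0 Pst array, was 1.35-fold lower (log2 ratio -0.43). In that comparison 0.331% of genes were at least 2-fold lower, and 12.8% of measured genes had a lower ratio than WRKY53. On the wrky40 array the log2 ratio was -0.18, and 23.1% of measured genes had a lower ratio, with 0.0828% of genes at least 2-fold lower. These ratios therefore lay inside the bulk of genes on their arrays.

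The double mutant array was no further from the wild type than either single mutant. Its signal of 95.5 gave a log2 ratio of -0.16 to the Col-0 Pst array, and 33.1% of measured genes had a lower ratio, with 0.0828% of all genes at least 2-fold lower. The double mutant array had a WRKY53 signal 1.20-fold higher than the wrky18 array and 1.01-fold higher than the wrky40 array. The 2-fold share in the higher direction was 0.745% of genes against wrky18 and 0.406% against wrky40. Against the double mutant, the wrky53 array was at least 4.33-fold lower, in a comparison where 1.58% of genes were at least 2-fold lower.

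On the wrky60 array the signal of 141, against 107 on the Col-0 Pst array, was 1.32-fold higher (log2 ratio 0.40). At least 2-fold higher on that array were 6.41% of genes and at least 2-fold lower 2.36%, and 27.1% of measured genes had a higher ratio than WRKY53. Median centring, which removes the higher median of the wrky60 array, put WRKY53 at 112 there and 107 on the Col-0 Pst array. It also turned the split of genes past 2-fold to 382 higher and 726 lower, from 852 higher and 313 lower with the signals as deposited. Quantile normalization gave 144 on the wrky60 array and 106 on the Col-0 Pst array, with 557 genes higher and 494 lower. Cyclic loess gave 135 on the wrky60 array and 103 on the Col-0 Pst array, with 394 genes higher and 323 lower. The split was thus turned by median centring but not by quantile normalization or cyclic loess. The part of the higher array median in the WRKY53 difference was not tested further.

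**Figure D2:**
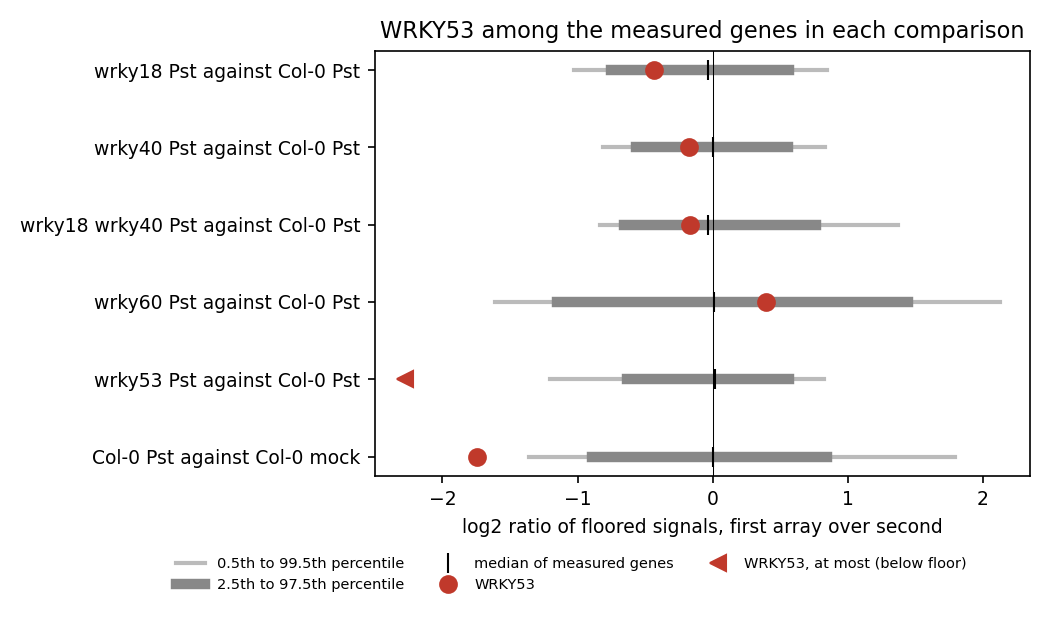
Log2 ratio of floored signals of WRKY53 (red) in 6 comparisons, first array over second, with the spread of the 7259 measured genes in grey (bars for 2 percentile ranges, tick for the median). The left-pointing triangle is an upper bound, because WRKY53 was under the floor on the wrky53 array. WRKY53 lies inside the wider grey range for wrky18, wrky40, the double mutant and wrky60, and to its left for wrky53 and for Col-0 Pst against mock.

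Ordered from low to high, the arrays were wrky53, wrky18, wrky40, the double mutant, Col-0 Pst, wrky60 and mock. The order of the 6 Pst arrays was the same under quantile normalization, median centring and cyclic loess. With no replicates the neighbours in this order cannot be set against a replicate spread. The double mutant and wrky40 arrays were 1.01-fold apart, and 94.2% of measured genes differed by at least as much between them. Col-0 Pst and the double mutant were 1.12-fold apart, as much as or less than 56.7% of measured genes, and wrky40 and wrky18 1.19-fold apart, as much as or less than 44.2%. Only 7.59% of measured genes were as far apart between the mock and wrky60 arrays as WRKY53 was, at 2.54-fold. Between the wrky18 and wrky53 arrays WRKY53 was at least 3.59-fold apart, a bound set by the floor, and 0.165% of measured genes had floored signals at least that far apart.

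Over the 5 Pst arrays other than wrky53, the SD of the log2 signal of WRKY53 was 0.31. The median SD over measured genes on the same arrays was 0.28, and 57.5% of measured genes varied less than WRKY53. Without the wrky60 array the SD was 0.18, with a median of 0.19 over measured genes. WRKY53 therefore varied about as much among these genotypes as the typical measured gene, over a range of 1.78-fold, or 1.35-fold without wrky60.

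Of the other 71 WRKY genes in the gene table, 6 had a named probe set, and 5 of those were measured. WRKY18, WRKY40 and WRKY60 are not among them and were not analysed here. On the Col-0 Pst array 2 of the 5 were at least 2-fold lower than on the mock array and 0 higher. The share of all genes in either direction, measured or not, was 2.08%. Genes under the floor on both arrays have equal floored signals and cannot pass, so this background is not limited to measured genes as the 5 are. The median log2 ratio of the 5 was -0.78. WRKY22, which acts downstream of a MAP kinase cascade in flagellin signalling, had 146 after Pst and 370.4 after mock treatment, 2.54-fold lower. WRKY47 had 117 after Pst and 306 after mock treatment, 2.62-fold lower. WRKY6, a regulator linked to senescence and defence, had 110.2 after Pst and 189 after mock treatment, which is under 2-fold. ZAP1 (WRKY1) and WRKY20 had log2 ratios of 0.23 and -0.04. WRKY42, linked to phosphate homeostasis, had signals of 0.760 to 6.71 and lay under the floor on all 7 arrays.

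On the wrky53 array, 1 of these 5 genes was at least 2-fold lower than on the Col-0 Pst array and 0 higher. The share of all genes in either direction was 0.632%, and 0.923% of measured genes were at least 2-fold lower. The median log2 ratio of the 5 was -0.70, against 0.02 over measured genes. WRKY22 had 57.3 on the wrky53 array and 146 on the Col-0 Pst array, 2.54-fold lower. WRKY6 had 64.0 on the wrky53 array and 110.2 on the Col-0 Pst array, which is under 2-fold. WRKY47 had 72.0 on the wrky53 array and 117 on the Col-0 Pst array, also under 2-fold. For these 3 genes the wrky53 array had the lowest of the 7 signals. The wrky60 array was next lowest, with 70.2 for WRKY6, 116 for WRKY22 and 89.1 for WRKY47. For WRKY6 the wrky60 and wrky53 arrays were thus close. ZAP1 had 121 on the wrky53 array and 113 on the Col-0 Pst array, and WRKY20 had 89.0 on the wrky53 array and 84.3 on the Col-0 Pst array.

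On the double mutant array 1 of the 5 was at least 2-fold higher than on the Col-0 Pst array and 0 lower. The share of all genes in either direction, measured or not, was 0.798%. This gene was WRKY6, with 240.2 on the double mutant array and 110.2 on the Col-0 Pst array, 2.18-fold higher. It was under 2-fold when log2 was taken of signal plus the floor value. WRKY53, WRKY22 and WRKY47 had log2 ratios of -0.16, 0.04 and 0.04 in the same comparison. The wrky18 and wrky40 single mutants had WRKY6 signals of 130.1 and 149.

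**Figure D3:**
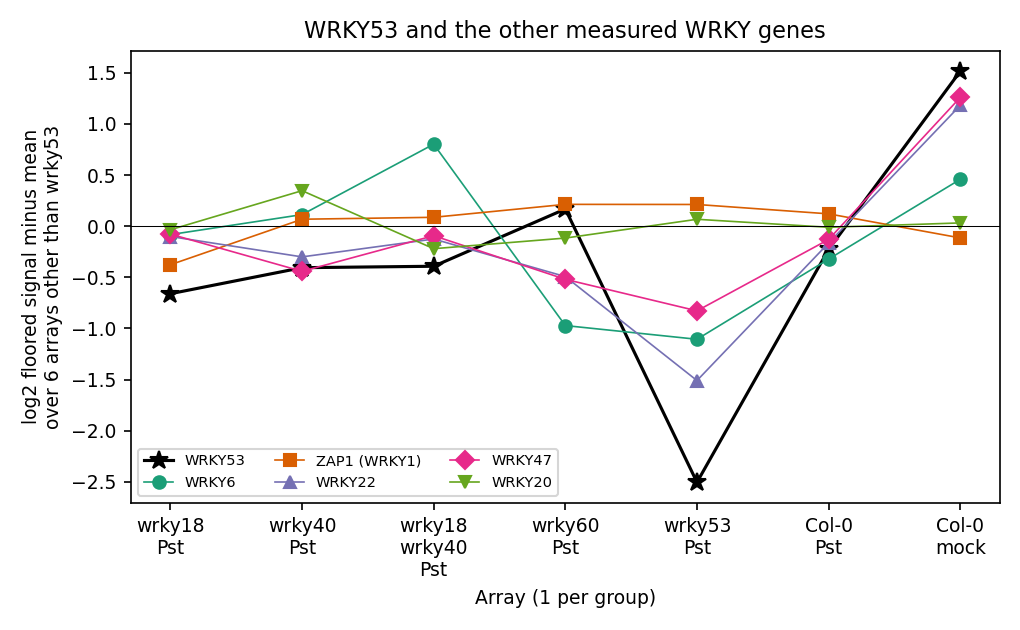
Log2 floored signal of WRKY53 (black stars) and the 5 other measured WRKY genes on the 7 arrays, each gene centred on its mean over the 6 arrays other than wrky53; lines join the arrays of a gene and imply no order. WRKY53, WRKY22 and WRKY47 are highest on the mock array, WRKY6 on the double mutant array.

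Among 13 genes listed as reported targets of WRKY53, 3 had a named probe set, and all 3 are WRKY genes described above (WRKY6, WRKY22 and WRKY42). Of the 2 measured, WRKY22 passed 2-fold downward for Col-0 Pst against mock, as did 1.05% of all genes. It also did so for wrky53 against Col-0 Pst, as did 0.504% of all genes. WRKY6 passed 2-fold upward for the double mutant against Col-0 Pst, as did 95 of 13286 genes. As stated above, WRKY6 was under 2-fold with log2 of signal plus the floor value. Whether WRKY53 acts on either gene in these plants was not tested. The leaf senescence list held 27 genes, of which 3 had a probe set with 1 named gene and 2 of those were measured. SAG101, a lipase-like partner of the immune regulator EDS1, had 24.5 on the wrky53 array, 36.1 on the double mutant array, 31.2 on the Col-0 Pst array and 54.2 on the mock array. EIN3, a transcription factor of ethylene signalling, had 430.2 on the wrky53 array, 463 on the double mutant array, 514 on the Col-0 Pst array and 492 on the mock array. Neither passed 2-fold in these 3 comparisons. On the wrky60 array, EIN3 had 249 and a log2 ratio of -1.05 to the Col-0 Pst array, in a comparison where 2.36% of genes were at least 2-fold lower. SAG29, a sugar transporter gene, had signals of 4.22 to 13.1, under the floor on all 7 arrays. The state of leaf senescence in these rosettes is therefore hardly covered by named probe sets. The lists of regulators of WRKY53, of MAP kinase cascade genes and of salicylic acid genes, with 11 genes each, had 0 members with a named probe set and were not analysed here.

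To find genes with a pattern like that of WRKY53, each measured gene's log2 signals were centred over the 6 arrays other than wrky53, and the root mean square difference from WRKY53 was taken. The 8 nearest genes had differences of 0.19 to 0.32 on the log2 scale, where the median of 7258 genes was 0.76. The gene next in order had 0.32 as well, so the limit at 8 is arbitrary. The nearest was EXLA1, an expansin-like gene, expansins being proteins that loosen cell walls. EXLA1 had 21.6 on the wrky18 array, 22.6 on the wrky40 array and 17.2 on the double mutant array. It had 33.7 on the wrky60 array, 26.4 on the Col-0 Pst array and 64.5 on the mock array, so most of its Pst signals were near the floor. Its wrky18 and double mutant signals were under the floor and were raised to it, so its likeness to WRKY53 rests partly on the floor.

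The other 7 are given by locus code, since the gene table names none of them. AT1G51620 had 39.3, 57.3, 60.2 and 63.0 on the wrky18, wrky40, double mutant and wrky60 arrays, 60.1 on the Col-0 Pst array and 153 on the mock array. AT1G19380 had the highest signals of the 8, at 501, 537, 539.9 and 783 on those mutant arrays, 600.1 on the Col-0 Pst array and 1234 on the mock array. For both, the mock array was highest and the wrky18 array lowest of these 6, as for WRKY53. AT1G51805 had 138 to 187 on the 5 Pst arrays and 383 on the mock array. AT5G57760, AT3G57700, AT3G05320 and AT1G23140 had 19.2 to 59.5 on the Pst arrays and 52.9 to 101 on the mock array. AT5G57760 was under the floor on the wrky18 array, and AT3G05320 on the wrky18 and Col-0 Pst arrays. The likeness of AT5G57760 and AT3G05320 to WRKY53 thus also rests partly on the floor. Without the wrky60 array 3 of the 8 (AT1G51620, EXLA1 and AT5G57760) were still among the 8 nearest, and all 8 were among the 50 nearest. With Pearson correlation as the measure, 2 of the 8 were among the 8 nearest.

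The wrky53 array was not used in the likeness by which these 8 genes were chosen, though it entered the mean signal that defines measured genes. On it, 5 of the 8 had a floored signal below those of all 5 other Pst arrays, beside 822 of 7259 measured genes (11.3%). AT1G19380 had 244 on the wrky53 array, against 501 to 783 over the other 5, and AT1G51620 had 28.7, against 39.3 to 63.0. These 2 genes were at least 2-fold lower than on the Col-0 Pst array, beside 0.923% of measured genes. AT1G51805 had 117, AT1G23140 had 32.9 and AT3G57700 had 20.1, which is under the floor. EXLA1 went the other way, with 29.8 on the wrky53 array, within its range of 17.2 to 33.7 on the other Pst arrays. AT5G57760 and AT3G05320 were under the floor on the wrky53 array and on at least 1 other Pst array, so their order is not settled. The median log2 ratio of the 8 genes, wrky53 against Col-0 Pst, was -0.77, against 0.02 over measured genes. With the wrky60 array left out and the genes chosen again, 6 of 8 were below the remaining 4 Pst arrays, beside 17.6% of measured genes. Of these 6, AT5G25440, AT3G56880 and AT3G22060 were not below the wrky60 array, which leaves 3 of 8.

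The same count was made for the other 23 genes that were at least 2-fold below the mock array on all 5 Pst arrays other than wrky53. Of these, 14 were below all 5 on the wrky53 array, beside 11.3% of measured genes. On that array 11 of the 23 were at least 2-fold lower than on the Col-0 Pst array, beside 0.923% of measured genes. Among the 23 were 2 of the 8 nearest genes. The rule for this set is one that WRKY53 itself meets, so the set is not independent of likeness to WRKY53. These comparisons rest on 1 wrky53 array, so a difference of genotype cannot be told apart from one between single arrays or sets of plants.

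**Figure D4:**
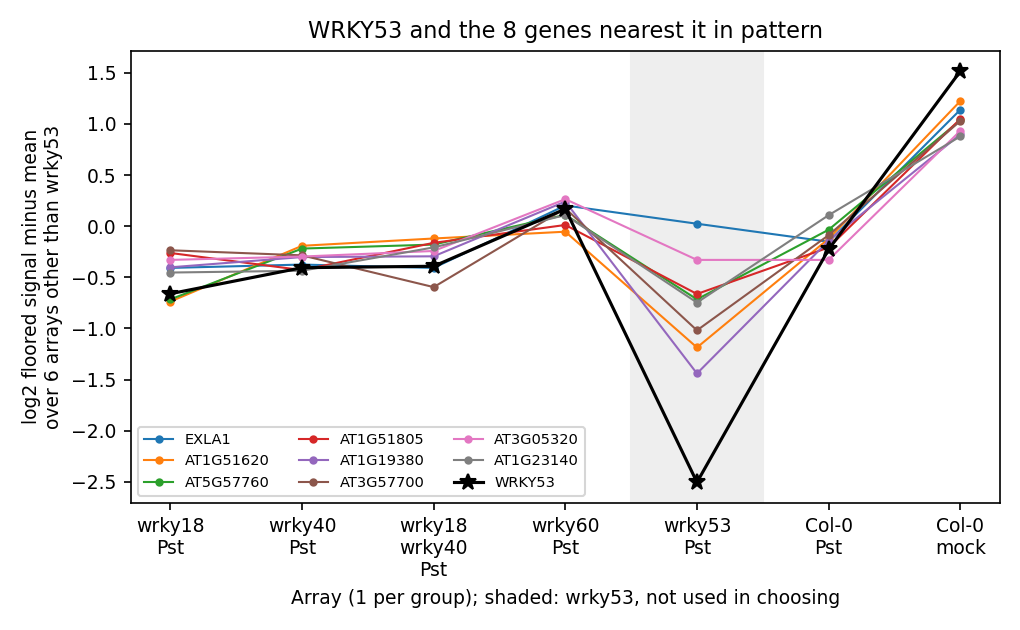
Log2 floored signal of WRKY53 (black stars) and its 8 nearest genes on the 7 arrays, each gene centred on its mean over the 6 arrays other than wrky53; lines join the arrays of a gene and imply no order. The wrky53 array, shaded, was not used in the likeness by which the genes were chosen. All 9 genes are highest on the mock array, and EXLA1 alone lies above its Col-0 Pst value on the wrky53 array.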

How the data were processed

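RNA was measured on 7 one-colour Affymetrix ATH1 arrays, 1 per group. Source names gave the knockout genotypes, and titles gave the Col-0 genotype and the treatments. The authors deposited signal intensities from MAS5, as the submitters' processing notes say; no version was given. The 2% trimmed means of the 7 arrays were nearly equal, and intensities were used as deposited. Such scaling sets a common mean, so differences in the shape of the signal distribution between arrays stay in the values. The number of arrays limits the precision.

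Of 22746 non-control probe sets, 13513 had 1 gene in the platform annotation and 13436 matched the TAIR10.1 gene table, used for names and neighbours only. Per gene, the probe set with the highest mean signal was kept. With 1 array per group, no p-value was computed, and genes were counted at 2-fold. Named genes were WRKY53, the other WRKY genes, the flanking genes, list members and the 8 nearest in pattern. The members and lists were chosen with earlier results of these data known. Protein and promoter sequences, planned for, were not analysed here. Functions were tested on simulated data. Alternatives were a lower floor (25th percentile), a higher floor (60th), log2 of signal with the floor value added, quantile normalization, median centring, cyclic loess, every probe set, other comparators and leaving out wrky60. A gene was treated as moved beyond 1.5-fold and a count beyond 1.5 times. Scaling used limma 3.58.1 in R 4.3.3; everything else ran in Python 3.11.15 with pandas 2.3.3 and numpy 2.4.6.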

Additional observations from a re-analysis of the deposited data

How the results depend on the processing

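The WRKY53 log2 ratio of Col-0 Pst to mock moved by less than 1.5-fold under the floors and scalings tried, as did the ratios of the wrky18, wrky40, wrky60 and double mutant arrays to Col-0 Pst, including those against the median of other Pst arrays. Those of the double mutant ranged from -0.16 to 0.01, so the sign of this small ratio was not fixed. For wrky53 the bound was -3.69 with the 25th percentile floor and -0.82 with the 60th, by construction. Genes at least 2-fold higher and lower after Pst in Col-0 numbered 237 and 230 with the 25th percentile floor, 77 and 83 with the 60th, and 83 and 84 with log2 of signal plus the floor value, against 137 and 140. For wrky53 against Col-0 Pst they were 88 and 139, 8 and 38, and 6 and 40, against 17 and 67. For the other arrays against Col-0 Pst, higher genes ranged from 3 to 118 and lower from 6 to 155 (wrky18), 1 to 183 and 4 to 65 (wrky40), 48 to 185 and 3 to 101 (double mutant), and 165 to 2293 and 104 to 726 (wrky60). Of the 8 nearest genes, 3 were among the 8 nearest without wrky60 and 2 with Pearson correlation. The count on the wrky53 array without wrky60 was chosen after seeing the data. No paired analysis was possible because each group has 1 array.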
